A study of Mus musculus with 19 samples.

Results

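The genes described here are 10 members of the Notch pathway, picked by symbol from the 24343 gene symbols in the expression tables of sorted mouse prostate cells. They are the receptors Notch1, Notch2, Notch3 and Notch4, the ligands Jag1, Jag2, Dll1 and Dll4, and the target genes Hes1 and Hey1. All 10 were found, each as a single RefSeq transcript, and each reached 1 FPKM in at least 1 of the 19 libraries. FPKM (fragments per kilobase of transcript, scaled by mapped fragments) corrects for length and depth, so levels of different genes can be set side by side on it. Basal, luminal and stromal cells had been sorted by flow cytometry from anterior prostates. One genotype was Lgr5-DTR-eGFP (called Lgr5-DTR below), in which cells that express Lgr5 carry the diphtheria toxin receptor and a green fluorescent protein, and these mice had received diphtheria toxin. The other was wild type, and neither its strain nor any toxin treatment is given by the labels, which record that C57BL/6 mice came from a commercial breeder and Lgr5-DTR-eGFP mice from another laboratory. Genotype, toxin and source of the animals therefore cannot be told apart. The groups held 4 Lgr5-DTR and 3 wild type stromal libraries and 3 libraries of each genotype in basal and in luminal cells. The age and number of the animals are not given in the sources used here, so a p-value here reflects spread among the libraries alone, part of which may be technical.

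Notch receptors sit in the cell membrane and are activated by Jagged and Delta-like ligands on a neighbouring cell. Binding lets proteases, the last of them gamma-secretase, release the receptor's intracellular part, which joins the DNA-binding protein RBPJ and Mastermind coactivators in the nucleus. Hes and Hey genes are their common targets and encode repressors of the basic helix-loop-helix class. In the prostate epithelium the pathway is known for its part in the balance of basal and luminal cells.

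The libraries held 5.26 to 9.38 gigabases aligned on transcripts, and in the members 1 FPKM stood for a mean depth of 8.2 to 11.6 reads per base. Lgr5 itself, the targeted gene, was at 29.1, 25.8 and 77.6 FPKM in wild type stromal libraries and at 0.971, 0.869, 1.32 and 0.501 FPKM in Lgr5-DTR stromal libraries. The sorts carried their labelled markers. Summed over 10 basal markers, wild type basal libraries reached 10430 to 13420 FPKM, against 168 to 554 FPKM in luminal and 23.3 to 56.4 FPKM in stromal libraries. The 10 luminal markers summed to 26800 to 29610 FPKM in luminal, 4856 to 5721 FPKM in basal and 186 to 631 FPKM in stromal libraries. Probasin (Pbsn), a secreted prostate protein, made up most of the luminal sum, with means of 19610 FPKM in luminal and 136 FPKM in basal cells. The other 9 summed to 6929 to 12240 FPKM in luminal libraries. Krt8 (1670 against 1318 FPKM) and Krt18 (2565 against 2255 FPKM) were close in luminal and basal cells, and only Foxa1 was higher in basal cells (80.3 against 191.8 FPKM). The 10 fibroblast markers summed to 13820 to 17240 FPKM in stromal, 988 to 1221 FPKM in basal and 184 to 232 FPKM in luminal libraries. Dcn (mean 817.9 FPKM) and Gsn (297 FPKM) made up most of the basal sum, and only 3 of the 10 had a basal mean of at least 1 FPKM. The luminal sort also held Schwann cell transcripts, whose 6 markers summed to 40.7 to 61.8 FPKM in wild type libraries, against 69.2 to 150 FPKM in Lgr5-DTR ones. In 7 libraries, spread over 5 of the 6 groups, 424 transcripts each had a low-data status that the other 12 libraries lacked. These are called the low-data set below.

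**Figure D1:**
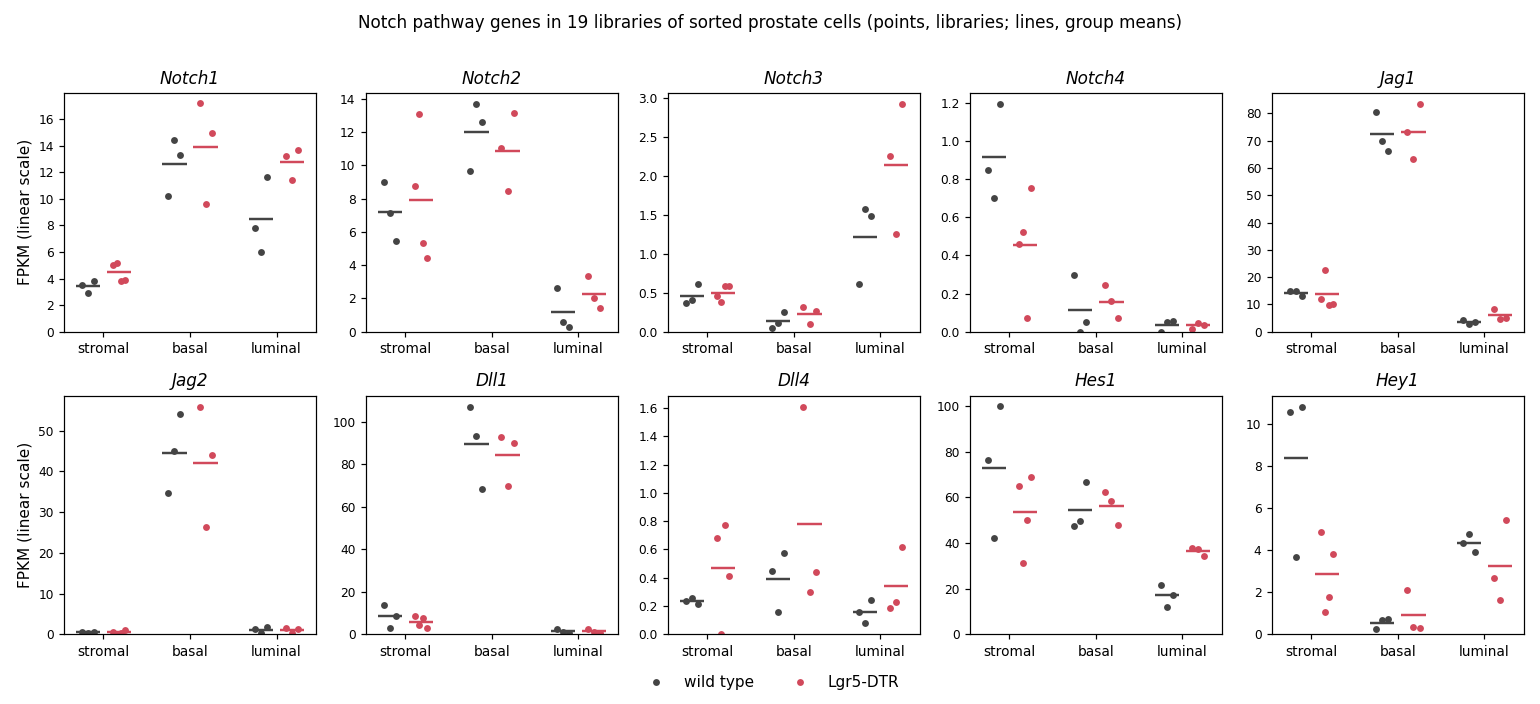
FPKM (linear scale, separate for each gene) of the 10 genes by sorted population, with 1 point per library, lines at group means, wild type in grey and Lgr5-DTR in red. Jag1, Jag2 and Dll1 are highest in every basal library of both genotypes, Notch2 is lowest in luminal cells, and the 3 Lgr5-DTR luminal libraries lie above the 3 wild type ones for Hes1.

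Notch ligand transcripts were concentrated in basal cells. Summed over Jag1, Jag2, Dll1 and Dll4, wild type basal cells held 206.8 ± 16.7 FPKM (SD, n = 3), stromal cells 23.5 ± 5.60 FPKM and luminal cells 6.15 ± 1.86 FPKM (SD, n = 3 each). Dll1, Jag1 and Jag2 made up on average 43%, 34.9% and 21.9% of the basal sum, and Dll4 only 0.193%. In stromal and luminal cells Jag1 was the main ligand, with 63.4% and 58.2% of the smaller sums.

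Dll1, a Delta-like ligand of many epithelia and of the embryo, spans chr17:15367354-15375823 on the minus strand of mm10. It measured 107, 93.3 and 68.4 FPKM in the wild type basal libraries, 13.8, 2.84 and 8.59 FPKM in stromal and 2.37, 1.30 and 0.424 FPKM in luminal libraries. The 3 populations did not overlap, and the stromal libraries were the most spread. On the log2(FPKM + 1) scale the basal level exceeded the luminal level by 5.32 (SE 0.454, limma adjusted p = 2.42e-06). Stromal minus basal was -3.45 (SE 0.454, limma adjusted p = 6.78e-05). Stromal cells were in turn above luminal cells by 1.87 (SE 0.454, limma adjusted p = 0.00353).

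Jag1, the Jagged ligand mutated in Alagille syndrome, spans chr2:137081451-137116520 on the minus strand. The wild type values were 80.7, 69.8 and 66.3 FPKM in basal, 14.9, 15.0 and 13.0 FPKM in stromal and 4.27, 2.72 and 3.57 FPKM in luminal libraries. Basal, stromal and luminal cells thus formed 3 steps without overlap. Basal exceeded luminal cells by 4.03 (SE 0.185, limma adjusted p = 8.77e-09), and stromal exceeded luminal cells by 1.77 (SE 0.185, limma adjusted p = 2.82e-06). Stromal minus basal was -2.26 (SE 0.185, limma adjusted p = 4.42e-07).

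Jag2, the second Jagged ligand, spans chr12:112908590-112929495 on the minus strand. It was at 34.6, 45.0 and 54.2 FPKM in wild type basal libraries. In stromal libraries it was at 0.607, 0.363 and 0.493 FPKM, and in luminal libraries at 1.31, 0.306 and 1.68 FPKM. Only the basal libraries stood apart, since stromal and luminal values overlapped (stromal minus luminal -0.44, SE 0.273, limma adjusted p = 0.174). Basal exceeded luminal cells by 4.48 (SE 0.273, limma adjusted p = 6.1e-08), and stromal minus basal was -4.92 (SE 0.273, limma adjusted p = 1.21e-08). Jag2 entered this fit through the 3 basal libraries, where it is high, so its tests against basal cells add little to the values themselves.

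Dll4, a ligand best known from endothelial tip cells, was low in every group. It was at 0.445, 0.157 and 0.578 FPKM in wild type basal, 0.237, 0.257 and 0.218 FPKM in stromal and 0.159, 0.0773 and 0.241 FPKM in luminal libraries. In Lgr5-DTR cells 1 basal library reached 1.61 FPKM, the other two were at 0.299 and 0.442 FPKM, and 1 stromal library listed it at 0. It reached 1 FPKM in 1 library in all, so the filter left it out of every comparison. Endothelial markers summed to 10.5 to 17.0 FPKM in wild type basal libraries and 18.6 to 41.0 FPKM in Lgr5-DTR basal libraries (5 and 8 of 14 with a mean of at least 1 FPKM), and their part in the Dll4 values was not tested. Its exons overlap Gm14207, an antisense transcript, so its level is uncertain.

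Because Jag1, Jag2 and Dll1 shared the basal pattern, the 250 bases before the starts of their measured transcripts are shown. They run 5′ to 3′ on the strand of the gene and come from RefSeq on GRCm38 (the mm10 assembly). Capitals mark GC boxes (GGGCGG on either strand, overlapping matches joined). RefSeq extends Jag2 to position 112929812 and Dll1 to 15376932, upstream of the starts used, so these windows need not be the only promoters. A second Dll1 window, chr17:15376933-15377182, is not shown and also held 0 GC boxes. The windows shown are chr2:137116521-137116770 for Jag1, chr12:112929496-112929745 for Jag2 and chr17:15375824-15376073 for Dll1, all on the minus strand.
Jag1: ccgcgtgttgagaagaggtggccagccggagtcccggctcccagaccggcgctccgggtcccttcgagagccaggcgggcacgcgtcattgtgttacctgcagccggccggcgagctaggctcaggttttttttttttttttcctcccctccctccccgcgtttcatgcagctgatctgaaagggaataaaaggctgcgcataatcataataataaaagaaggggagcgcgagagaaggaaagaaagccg
Jag2: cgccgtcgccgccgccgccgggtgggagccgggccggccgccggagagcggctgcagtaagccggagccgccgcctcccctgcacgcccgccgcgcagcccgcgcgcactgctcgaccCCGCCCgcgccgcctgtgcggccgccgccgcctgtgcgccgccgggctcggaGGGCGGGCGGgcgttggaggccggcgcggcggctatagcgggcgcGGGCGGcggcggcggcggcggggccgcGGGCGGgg
Dll1: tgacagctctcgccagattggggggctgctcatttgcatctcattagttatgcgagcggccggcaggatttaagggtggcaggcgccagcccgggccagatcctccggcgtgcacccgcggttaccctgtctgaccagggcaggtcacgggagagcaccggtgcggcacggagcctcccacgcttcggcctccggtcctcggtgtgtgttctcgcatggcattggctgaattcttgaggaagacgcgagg

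The 3 windows differed in composition despite the shared pattern. Jag2 had 87.2% G and C and 5 GC boxes, while Jag1 had 57.2% and Dll1 64%, both with 0 GC boxes. A GC box was found in 32.7% of the 32851 RefSeq windows of that length. The core letters of the RBPJ site (TGGGAA, both strands), found in 21.6% of all windows, were in 0 of the 3. The same held for the E-box CACGTG (6.02% of windows), the N-box CACNAG that Hes proteins bind (36.7%, both strands) and the TATA box TATAAA (12.4%, both strands). Such a search says only which letters these windows hold.

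Receptor transcripts differed less between the populations than ligand transcripts. Their sum was 24.9 ± 4.19 FPKM in wild type basal, 12.0 ± 1.51 FPKM in stromal and 10.9 ± 2.65 FPKM in luminal cells (SD, n = 3 each). The populations differed in which receptor led. Notch1 made up 76.7% of the luminal sum, Notch1 and Notch2 shared the basal sum at 50.8% and 48.1%, and Notch2 led in stromal cells with 59.5%.

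Notch1, which encodes the receptor best known from T cell and skin development, spans chr2:26457902-26503822 on the minus strand. It was at 10.2, 14.4 and 13.3 FPKM in wild type basal, 7.84, 5.99 and 11.7 FPKM in luminal and 3.54, 2.88 and 3.85 FPKM in stromal libraries. Stromal cells lay below both epithelial populations, by -1.62 against basal (SE 0.238, limma adjusted p = 8.4e-05) and -1.06 against luminal cells (SE 0.238, limma adjusted p = 0.00154). Basal and luminal libraries overlapped, and their difference of 0.55 did not pass (SE 0.238, limma adjusted p = 0.0595), though it did in 7 of 23 alternatives.

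Notch2, another gene mutated in Alagille syndrome, spans chr3:98013538-98150367 on the plus strand and was lowest in luminal cells. Its luminal values were 2.60, 0.596 and 0.306 FPKM in wild type, against 9.64, 13.7 and 12.6 FPKM in basal and 8.97, 7.15 and 5.42 FPKM in stromal libraries. No luminal library reached the stromal or basal range, and the luminal libraries differed widely among themselves. Basal exceeded luminal cells by 2.71 (SE 0.334, limma adjusted p = 1.77e-05) and stromal exceeded luminal cells by 2.04 (SE 0.334, limma adjusted p = 0.000142). Stromal and basal libraries did not overlap, but their difference of -0.68 did not pass (SE 0.334, limma adjusted p = 0.103), though it did in 3 of 23 alternatives.

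Notch3, the receptor of vascular mural cells, spans chr17:32120893-32166852 on the minus strand, and its highest levels were in the luminal sort. Wild type luminal libraries had 0.611, 1.57 and 1.48 FPKM and Lgr5-DTR luminal libraries 2.26, 1.25 and 2.92 FPKM. The highest stromal library, of wild type, had 0.612 FPKM and the highest basal library, of Lgr5-DTR, 0.314 FPKM, so among wild type libraries the lowest luminal value lay within the stromal range. The filter left it out of the comparisons between wild type populations. Pericyte markers were present in the same sort. In luminal cells 6 of 8 (wild type) and 7 of 8 (Lgr5-DTR) had a group mean of at least 1 FPKM, their sums ran from 17.9 to 32.3 and from 41.5 to 90.6 FPKM, and none was at 0 in all libraries of a group. Their part in the Notch3 level was not tested.

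Notch4, a receptor of endothelial cells, spans chr17:34564295-34588543 on the plus strand and had the lowest mean of the receptors in basal and luminal cells. In stromal libraries it was at 0.848, 0.702 and 1.19 FPKM in wild type, and at 0.461, 0.525, 0.0703 and 0.755 FPKM in Lgr5-DTR. It was listed at 0 in 1 wild type basal and 1 wild type luminal library, and no basal or luminal library exceeded 0.296 FPKM. Endothelial transcripts in the stromal sort were scarce too. Of 14 markers, 4 (wild type) and 5 (Lgr5-DTR) had a mean of at least 1 FPKM in stromal cells, with sums of 9.06 to 14.6 and 7.05 to 15.4 FPKM. Among them Pecam1 averaged 0.955 and 0.924 FPKM and Tek 3.64 and 1.08 FPKM. Their part in the Notch4 level was not tested.

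Hes1 and Hey1, the target genes among the members, did not share the basal peak of the ligands in wild type cells. Of the other targets examined, Nrarp averaged 8.15 FPKM in wild type basal, 1.63 FPKM in stromal and 2.52 FPKM in luminal cells. Hes6 and Heyl had their lowest wild type means in basal cells, at 1.76 and 0.183 FPKM. Hes1, the most widely used target of the pathway, spans chr16:30065357-30067796 on the plus strand. In wild type it was at 76.4, 42.2 and 100.3 FPKM in stromal, 47.3, 49.6 and 66.8 FPKM in basal and 21.8, 12.1 and 17.3 FPKM in luminal libraries. Stromal and basal values overlapped (difference 0.34, SE 0.298, limma adjusted p = 0.346), and every luminal library lay below both. Stromal exceeded luminal cells by 1.98 (SE 0.298, limma adjusted p = 6.97e-05) and basal exceeded luminal cells by 1.64 (SE 0.298, limma adjusted p = 0.000412).

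Hey1, a target that Notch shares with other signals in vessels and mesenchyme, spans chr3:8663359-8667038 on the minus strand and was lowest in basal cells. The wild type values were 10.6, 3.69 and 10.8 FPKM in stromal, 4.36, 4.75 and 3.89 FPKM in luminal and 0.239, 0.659 and 0.737 FPKM in basal libraries. Stromal minus basal was 2.49 (SE 0.318, limma adjusted p = 2.54e-05) and basal minus luminal -1.80 (SE 0.318, limma adjusted p = 0.000336). Stromal and luminal libraries overlapped, because stromal replicate 2 was low (difference 0.70, SE 0.318, limma adjusted p = 0.0694), and without that library the difference was 1.14 with a limma adjusted p of 0.000836.

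**Figure D2:**
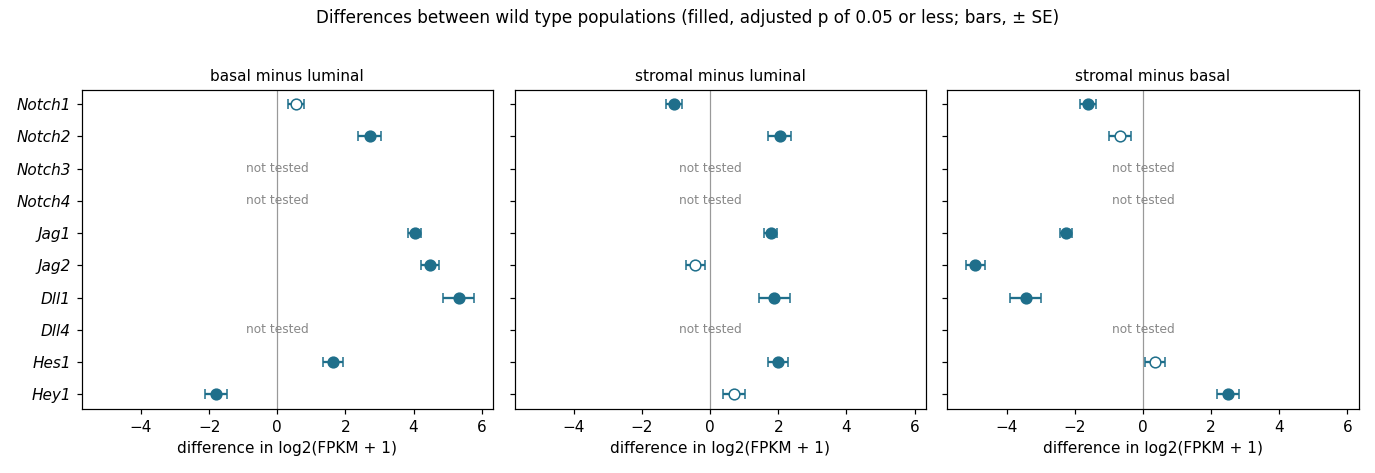
Differences between wild type populations on the log2(FPKM + 1) scale for the 10 genes, with the SE as bars and filled points for a limma adjusted p of 0.05 or less. Jag1, Jag2 and Dll1 show the widest gaps between basal and luminal cells, at 4.03, 4.48 and 5.32, and Hey1 is the called gene on the other side of 0 there, at -1.80.

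Of the 7 members that could be tested between wild type populations, 5 were higher and 1 lower in basal than in luminal cells, where 62.3% of all tested genes were called (25.5% higher and 36.8% lower). Between stromal and luminal cells 4 were higher and 1 lower, against 67.8% of all genes (28.5% and 39.3%). Between stromal and basal cells 1 was higher and 4 lower, against 57% (29.2% and 27.8%). The sorted populations differ in most genes, so a count of calls near these shares is not particular to the pathway. The median difference of the tested members was 2.71, 1.77 and -1.62 in these 3 comparisons, beside -0.14, -0.24 and 0.00 over all genes. The groups did not overlap in 6, 5 and 6 of the 7 members, against 69.4%, 69.5% and 63.7% of all genes. The share of higher calls among all called genes moved with the scaling, from 40.9% for basal minus luminal to 50.6% with quantile normalization and 49.4% with trimmed means of M values (TMM), and from 42.1% for stromal minus luminal to 45.2% and 50.6%. Notch3, Notch4 and Dll4 were not among the 7, and Jag2 entered through its basal libraries.

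The Lgr5-DTR libraries, which share no sample with the wild type ones, gave the same basal ligand pattern. Basal minus luminal was 5.20 for Dll1, 4.40 for Jag2 and 3.42 for Jag1, with limma adjusted p-values of 3.1e-07, 6.56e-07 and 1.82e-06. The targets had smaller differences there. Hes1 basal minus luminal was 0.60 (limma adjusted p = 0.0802) and stromal minus luminal 0.49 (limma adjusted p = 0.106). Hey1 stromal minus basal was 1.02 (limma adjusted p = 0.0522), while basal minus luminal still passed at -1.18 (limma adjusted p = 0.0445). Notch3 entered that fit only through its 3 luminal libraries, so no test of it between populations is given.

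In luminal cells Hes1 was the member that changed with genotype. It was at 37.8, 37.6 and 34.2 FPKM in Lgr5-DTR and at 21.8, 12.1 and 17.3 FPKM in wild type libraries. All 3 Lgr5-DTR libraries lay above all 3 wild type libraries and close together, and the means of 36.5 ± 2.01 and 17.1 ± 4.86 FPKM (SD, n = 3 each) differed 2.14-fold. The log2 difference was 1.09 (SE 0.214, limma adjusted p = 0.0297). The call was not firm. The adjusted p ran from 0.0169 to 0.129 over 18 alternatives, of which 12 kept the call, and it was lost without Lgr5-DTR replicate 1 (0.0924) or 2 (0.0726), without wild type replicate 2 (0.119) or 3 (0.129), with quantile normalization (0.0514) and with no filter on low values (0.127). The log2 difference stayed between 0.87 and 1.27 with any 1 library left out. Within the low-data set Hes1 was at 37.8 FPKM in the Lgr5-DTR library and 21.8 and 17.3 FPKM in the wild type ones, and outside it at 37.6 and 34.2 against 12.1 FPKM.

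Transcripts of other cell types also differed between the luminal groups. The Lgr5-DTR libraries exceeded the wild type libraries without overlap in the sums of Schwann cell markers (69.2 to 150 against 40.7 to 61.8 FPKM, 4 and 5 of 6 with a mean of at least 1 FPKM), of macrophage markers (29.7 to 132 against 19.1 to 26.2 FPKM, 7 and 6 of 8) and of the pericyte markers given above. No marker of these lists was at 0 in all luminal libraries of a group. The 10 luminal markers themselves summed to 17840 to 24470 FPKM in Lgr5-DTR, below the 26800 to 29610 FPKM of wild type. Pbsn carried that gap, with a mean of 8849 against 19610 FPKM. The other 9 summed to 8196 to 15910 FPKM in Lgr5-DTR and 6929 to 12240 FPKM in wild type, which overlap, and the keratins Krt8 (3030 against 1670 FPKM), Krt18 (3773 against 2565 FPKM) and Krt19 (4756 against 2986 FPKM) had the higher mean in Lgr5-DTR. Of the 6 Schwann cell markers, the regulator Sox10 ranged from 20.3 to 64.0 FPKM over the Lgr5-DTR libraries. The part of these marker lists in the Hes1 difference was not tested. In bulk RNA, more cells of a type and more RNA per cell cannot be told apart.

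The other luminal members had the following values. Jag1 was at 8.19, 4.75 and 5.15 FPKM in Lgr5-DTR against 4.27, 2.72 and 3.57 FPKM, without overlap, and did not pass (log2 0.62, SE 0.252, limma adjusted p = 0.187). Notch1 was at 13.2, 11.4 and 13.7 against 7.84, 5.99 and 11.7 FPKM and did not pass (log2 0.58, SE 0.238, limma adjusted p = 0.191). Notch2 (3.37, 2.04 and 1.41 FPKM in Lgr5-DTR) had a difference of 0.70 and Notch3 of 0.49, with limma adjusted p-values of 0.319 and 0.341. Both reached 1 FPKM in all 3 Lgr5-DTR libraries, but in only 1 (Notch2) and 2 (Notch3) wild type ones. They thus passed the filter through the group where they are high. Hey1 went the other way at -0.42 (2.68, 1.65 and 5.45 FPKM in Lgr5-DTR, limma adjusted p = 0.441), and Jag2 and Dll1 were at -0.04 and 0.05. In all, 1 of 8 tested members was called, against 3.14% of all genes (2.62% higher), and 2 of 8 did not overlap, against 27.1%. Their median difference was 0.54, beside 0.10 over all tested genes. That median includes Notch2 and Notch3, so it adds little to the values themselves.

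**Figure D3:**
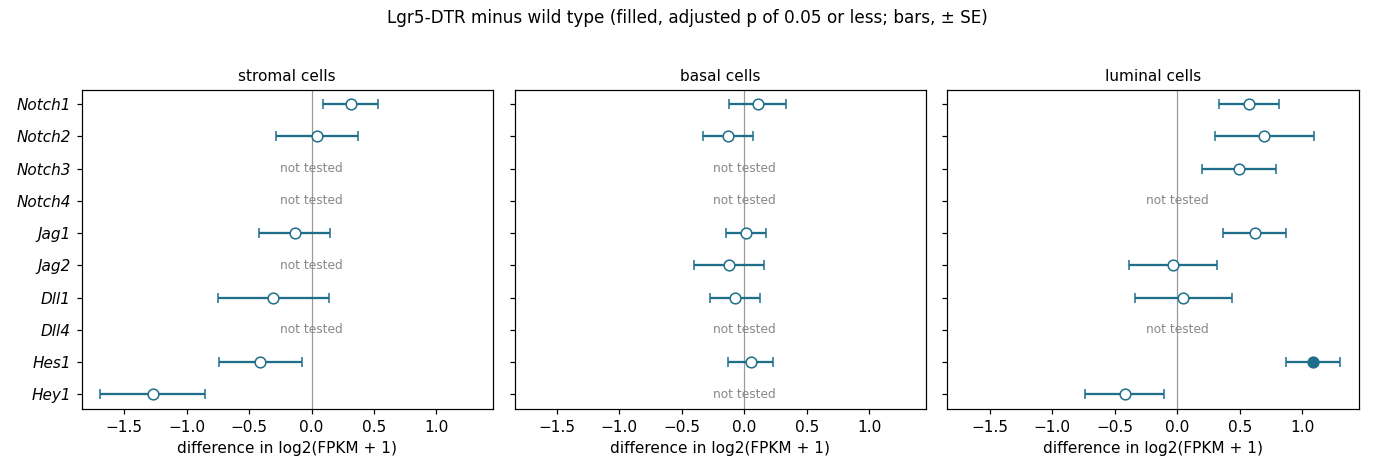
Lgr5-DTR minus wild type on the log2(FPKM + 1) scale in stromal, basal and luminal cells, with the SE as bars and a filled point for a limma adjusted p of 0.05 or less. Hes1 in luminal cells, at 1.09, is the only filled point, the basal points run from -0.13 (Notch2) to 0.11 (Notch1), and Hey1 in stromal cells is the lowest point at -1.27.

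In stromal cells Hey1 had the widest difference of the tested members and did not pass. Lgr5-DTR libraries had 4.87, 1.07, 1.78 and 3.79 FPKM and wild type libraries 10.6, 3.69 and 10.8 FPKM, so the groups overlapped through wild type replicate 2. The log2 difference was -1.27 (SE 0.417, limma adjusted p = 0.231). The fibroblast markers, all 10 with a mean of at least 1 FPKM in both groups, summed to 5792 to 7894 FPKM in Lgr5-DTR and 13820 to 17240 FPKM in wild type stromal libraries, and the 9 smooth muscle markers (8 with such a mean in both) to 401.4 to 506.4 and 293.4 to 354.4 FPKM. Acta2 (153.1 against 82.6 FPKM) and Tagln (128.1 against 65.4 FPKM) carried most of the smooth muscle gap. Des (53.9 against 72.1 FPKM), Synpo2 (6.96 against 9.17 FPKM) and Lmod1 (0.533 against 0.561 FPKM) had the lower mean in Lgr5-DTR. The part of both lists in the Hey1 values was not tested. Hes1 was at 64.9, 31.2, 50.0 and 69.1 FPKM and overlapped with wild type (log2 -0.41, SE 0.333, limma adjusted p = 0.747).

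Notch1 was the stromal member without overlap, by a narrow margin. Its lowest Lgr5-DTR value of 3.853 FPKM stood beside a highest wild type value of 3.847 FPKM (log2 0.31, SE 0.220, limma adjusted p = 0.685). Notch2 (8.77, 13.1, 5.35 and 4.46 FPKM), Jag1 (12.0, 22.7, 9.90 and 10.2 FPKM) and Dll1 (8.76, 4.47, 7.74 and 3.10 FPKM) overlapped with wild type, with differences of 0.05, -0.14 and -0.30. Jag2 stayed low at 0.654, 0.0857, 0.368 and 1.09 FPKM. Limma called 0 of the 6 tested members, with 1 (Hey1) at an unadjusted p under 0.05, where 1.17% of all genes were called and 11.5% had such an unadjusted p, and 1 of 6 did not overlap, against 11.2%. Their median difference was -0.22, beside -0.09 over all genes.

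In basal cells no difference between the genotypes was detectable in the tested members. Jag1 was at 73.0, 63.2 and 83.4 FPKM in Lgr5-DTR libraries (log2 0.01, SE 0.159, limma adjusted p = 0.964), Dll1 at 92.7, 69.6 and 90.2 FPKM (log2 -0.08, SE 0.201, limma adjusted p = 0.839) and Jag2 at 55.8, 26.3 and 44.1 FPKM (log2 -0.12, SE 0.278, limma adjusted p = 0.81). All 3 ligands overlapped with their wild type values. Notch1 was at 17.3, 9.61 and 14.9 FPKM, Notch2 at 11.1, 8.45 and 13.1 FPKM and Hes1 at 62.2, 58.4 and 48.1 FPKM, with differences of 0.11, -0.13 and 0.05. Hey1 was not tested, at 2.10, 0.329 and 0.311 FPKM. Limma called 0 of 6 tested members, with 0 at an unadjusted p under 0.05, in a population where 11% of all genes were called and 27.7% had such an unadjusted p. The groups overlapped in all 6, against 31.1% of all genes without overlap. Basal cells had the smallest median SE of the 3 populations, 0.196.

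The genotype differences of the members were also compared between populations. For Hes1 the basal difference minus the luminal one was -1.04 (SE 0.288, limma adjusted p = 0.0578) and the stromal one minus the luminal one -1.50 (SE 0.443, limma adjusted p = 0.103), so the luminal rise was not shown to differ from the other populations at the threshold. Over 23 and 24 alternatives these adjusted p-values ran from 0.0253 to 0.147 and from 0.0171 to 0.293. For Jag1 they were -0.61 (limma adjusted p = 0.227) and -0.75 (limma adjusted p = 0.434). Limma called 0 of 5 members between stromal and basal, 0 of 6 between stromal and luminal and 0 of 6 between basal and luminal cells, against 2.98%, 2.51% and 4.26% of all genes. The counts at an unadjusted p under 0.05 were 0, 1 and 1, against 14.5%, 13.5% and 22.7% of all genes.

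Beyond the 10 members, 52 further genes of the pathway were examined, among them other ligands, targets, fringe enzymes, proteases, nuclear partners and regulators of turnover. In stromal cells 1 of 39 tested genes was lower in Lgr5-DTR (1.1% of all genes) and 0 were higher, with a median of -0.11 beside -0.09 over all genes. In basal and luminal cells limma called 0 of 35 genes each, against 11% and 3.14% of all genes. At an unadjusted p under 0.05 there were 4 and 8, against 27.7% and 22.7% of all genes, with medians of 0.02 and 0.16 beside 0.02 and 0.10.

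The lower stromal gene was Dner, a transmembrane protein with EGF-like repeats that is described as a non-canonical Notch ligand of neurons. Dner spans chr1:84369839-84696221 on the minus strand, and its exons overlap the microRNA Mir5126. It was at 70.3, 68.1 and 119.8 FPKM in wild type stromal libraries and at 23.6, 28.8, 20.2 and 18.5 FPKM in Lgr5-DTR ones. The groups were far from overlapping, and the log2 difference was -1.84 (SE 0.254, limma adjusted p = 0.00587). The call held in all 19 alternatives, with limma adjusted p-values of 1.45e-05 to 0.0427. Dner was close to absent from the epithelium, at 0.00979, 0.109 and 0.0394 FPKM in wild type basal and 0.775, 0.575 and 0.389 FPKM in luminal libraries. Among wild type libraries only the 3 stromal ones brought it past the filter, so no test between populations is given. In wild type stromal cells its mean of 86.1 FPKM was above those of all 4 ligands among the members, the highest of which was Jag1 at 14.3 FPKM. The fibroblast marker sums were also lower, as given for Hey1, and their part in the Dner difference was not tested.

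**Figure D4:**
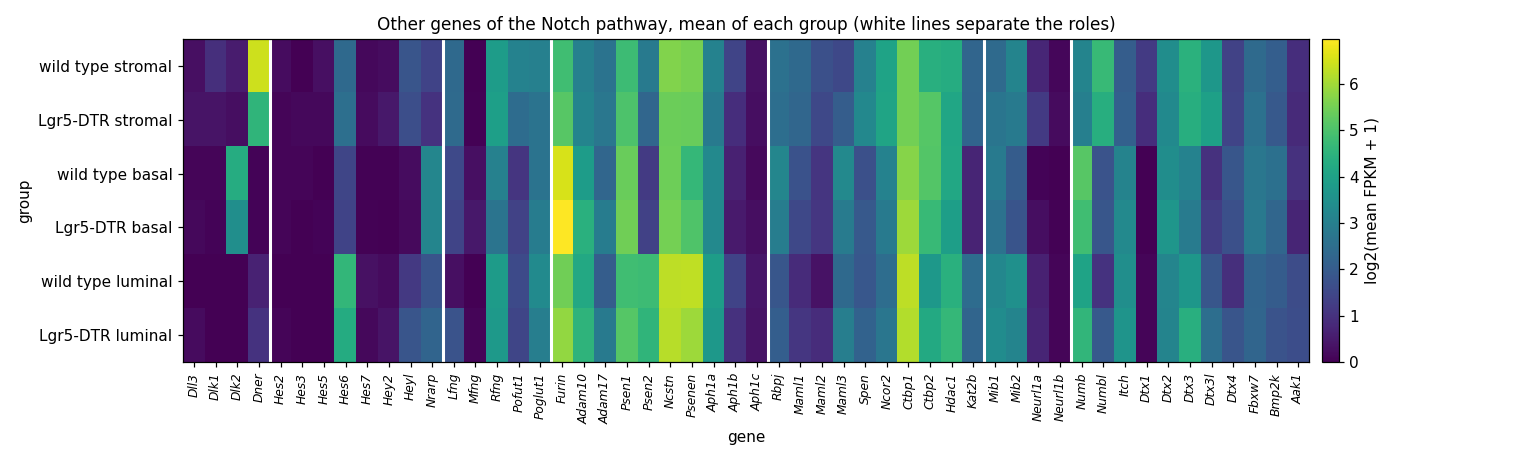
Mean level of the 52 further pathway genes in the 6 groups, as log2(mean FPKM + 1) on a colour scale from dark purple (0) to yellow, with groups in rows and white lines between ligands, targets, fringe and glycosylation, proteases, nuclear complex, ligand ubiquitin ligases and turnover. Dner stands out in both stromal groups, lower in Lgr5-DTR at 22.8 against 86.1 FPKM, Dlk2 in basal groups and Hes6 and Psen2 in luminal groups.

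The wider list was also compared across wild type populations. Of 40 tested, 16 were higher and 10 lower in stromal than in basal cells (57% of all genes called), 14 and 13 in stromal against luminal cells (67.8%), and 15 and 16 in basal against luminal cells (62.3%). The medians were 0.27, -0.01 and -0.27, beside 0.00, -0.24 and -0.14 over all genes.

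Several of these genes were concentrated in 1 or 2 populations. Dlk2, a Delta-like homologue that inhibits Notch signalling, averaged 18.7 FPKM in wild type basal and 0.431 FPKM in stromal cells and was listed at 0 in all luminal libraries. Hes6, a Hes family member that counteracts Hes1, averaged 23.3 FPKM in luminal against 1.76 FPKM in basal and 4.23 FPKM in stromal cells (basal minus luminal -3.17, SE 0.319, limma adjusted p = 3.29e-06). The gamma-secretase subunit gene Psen2 averaged 26.6 FPKM in luminal, 6.17 FPKM in stromal and 1.27 FPKM in basal cells (basal minus luminal -3.60, SE 0.23, limma adjusted p = 9.05e-08), and Psenen, another subunit, was higher in luminal than in basal cells at 78.2 against 23.9 FPKM (basal minus luminal -1.68, SE 0.217, limma adjusted p = 2.72e-05). Kat2b, a histone acetyltransferase, was at 4.47 against 0.66 FPKM in the same comparison (-1.73, SE 0.187, limma adjusted p = 6.08e-06).

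The Numb proteins, which promote endocytosis of Notch receptors, were split between compartments. Numb averaged 34.7 FPKM in basal and 7.79 FPKM in stromal cells (stromal minus basal -2.04, SE 0.222, limma adjusted p = 6.37e-06). Its relative Numbl averaged 24.7 FPKM in stromal against 2.41 FPKM in basal and 1.02 FPKM in luminal cells (stromal minus basal 2.90, SE 0.289, limma adjusted p = 2.76e-06). Dtx3l, a Deltex-like ubiquitin ligase, averaged 12.0 FPKM in stromal and 0.998 FPKM in basal cells (2.70, SE 0.224, limma adjusted p = 5e-07). Lfng, a fringe enzyme that modifies which ligands a receptor answers, averaged 4.25 FPKM in stromal and 0.219 FPKM in luminal cells (difference 1.99, SE 0.32, limma adjusted p = 0.000125). In Lgr5-DTR luminal libraries Lfng ran from 0.731 to 3.58 FPKM, above the wild type range of 0.105 to 0.427 FPKM, a difference that the filter left untested. Among Lgr5-DTR libraries its stromal minus luminal difference was 0.73 and did not pass (limma adjusted p = 0.0739).

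For 2 nuclear partners the genotype differences themselves differed between populations, although neither passed within a population. Ctbp2, a corepressor, was at 24.9 against 33.1 FPKM in Lgr5-DTR and wild type basal cells, 34.2 against 20.1 FPKM in stromal and 17.7 against 12.1 FPKM in luminal cells. The stromal difference exceeded the basal one by 1.11 (SE 0.269, limma adjusted p = 0.0359), and the basal minus luminal term was -0.92 (SE 0.222, limma adjusted p = 0.0355). Maml3, a Mastermind coactivator, was at 6.45 against 8.69 FPKM in basal and 6.95 against 4.22 FPKM in luminal cells (basal minus luminal term -0.98, SE 0.255, limma adjusted p = 0.0485). These calls held in 14 of 24, 13 of 23 and 6 of 23 alternatives, with limma adjusted p-values of up to 0.0988, 0.0918 and 0.106.

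The members also varied together over the 19 libraries, which fall into 3 populations, so that points of a population are not independent. Jag1 and Dll1 had a Pearson r of 0.958 on the log2(FPKM + 1) scale, Jag2 and Dll1 0.884, and Jag1 and Jag2 0.861. Notch2 followed Jag1 at 0.866, Notch3 ran against Notch2 at -0.825, and Hes1 and Hey1 were unrelated at -0.00829. Among 11831 genes searched, the gene most like both Jag1 (0.978) and Dll1 (0.984) was Crim1, which encodes a membrane protein that binds bone morphogenetic proteins. The next were Smtn and Tpm2 (0.97 each) for Jag1 and Gsto1 (0.979) and Aplp2 (0.964) for Dll1. For Jag2 they were Ces2b (0.988), Dusp7 (0.987) and Mecom (0.984). Plcd3 (0.939), Pcgf6 (0.936) and Tug1 (0.934) were closest to Notch1, Peak1 (0.957), Luzp1 and Rapgef1 (0.947 each) to Notch2, and Rasgef1c (0.963), Aatk (0.952) and Kcna6 (0.942) to Notch3. Cdkn1a (0.919), Med26 (0.909) and Bend3 (0.905) were closest to Hes1, and Ubb (0.945), Mpv17 (0.938) and Kdsr (0.915) to Hey1. These are descriptions over 19 libraries, with no test.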

How the data were processed

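FPKM of each RefSeq transcript were deposited, and the submitters' processing notes name TopHat2, Cufflinks and mm10. Versions and strand handling are not given in the sources used here, so reads of antisense transcripts could add to Notch1, Notch3, Dll1 and Dll4. The deposited coverage, a signal in reads per base, served only to measure depth, and the deposited FPKM limits and status column to find the low-data set.

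FPKM were summed per gene symbol. Differences were tested in R 4.3.3 by limma 3.58.1, with trend and robust settings, on log2(FPKM + 1), which understates changes of low genes. Genes needed 1 FPKM in at least 3 libraries of the fit (of each population, for differences between genotype effects), and genes with a failed or capped estimate (3 in stromal, 3 in basal, 6 in luminal cells) were left out. Benjamini-Hochberg adjustment ran over all tested genes, with calls at 0.05. Genotypes were compared within a population and wild type populations in 1 fit of 9 libraries. Alternatives were other pseudocounts, filters and scalings (quantiles, or trimmed means of M values, TMM), the highest transcript, blocks by number, a covariate for the low-data set and each library left out. Populations were also compared in Lgr5-DTR libraries, and genes of failed status kept, both added after seeing the data. The fits were tested on simulated data. Other steps used pandas 2.3.3 and numpy 2.4.6 under Python 3.11.15.

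The members, lists, tests and alternatives were chosen with earlier results of these data known. All members are named, with up to 5 called genes of the wider list per comparison by size of the log2 difference, and the 3 genes of most similar pattern for each of the 8 members that passed the filter over all libraries.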

Additional observations from a re-analysis of the deposited data

Results flagged for a closer look

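Jag1 in Lgr5-DTR stromal cells had a library far from the others, replicate 2 at 22.7 FPKM beside 12.0, 9.90 and 10.2 FPKM. Such a gap was looked for only in groups of at least 4 libraries, here the 10 members in Lgr5-DTR stromal cells, and chance gives about 1 in 20 groups. For Ctbp2 the genotype differences differed between populations in the test of that difference, by 1.11 for stromal minus basal and -0.92 for basal minus luminal cells (limma adjusted p = 0.0359 and 0.0355). For Maml3 the basal minus luminal term was -0.98 (limma adjusted p = 0.0485).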

How the results depend on the processing

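Of the values of members called at 0.05, 374 kept direction and call over the alternatives and 10 lost the call, and none reversed. The count of called members in luminal cells (1) became 0 with no filter and with quantile normalization and ran from 0 to 1 with a library left out. For the difference of genotype effects the count of 0 ran from 0 to 1 with a library left out, for stromal against luminal and for basal against luminal cells. Without wild type luminal replicate 3, limma called 0 genes in the luminal comparison, where 330 were called with all libraries.

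The replicate numbers did not pair the libraries in every population (same-number correlations of deviations from -0.0405 to 0.462 in stromal, -0.488 to -0.208 in basal and -0.101 to 0.347 in luminal cells). With the replicate block, Hey1 was called in stromal cells (-1.41, limma adjusted p = 0.00366), which raised the members called from 0 to 1. The block also raised the stromal against luminal count from 0 to 1, through Hes1 (-1.64, limma adjusted p = 0.0171), and moved the calls over all genes from 125 to 1041 in stromal, from 1069 to 213 in basal and from 330 to 755 in luminal cells. By sample numbers, 2 of 3 stromal, 0 of 3 basal and 1 of 3 luminal pairs correlated best with their own number. A block by the number in the titles ended the call of Dll1 between wild type stromal and luminal cells (0.35, limma adjusted p = 0.354). Those 2 groups share only 1 title number, so the stromal side of that value rests on 1 library. Wild type basal and luminal libraries share 3 title numbers, whose meaning the labels do not give. With the title block Notch1 basal minus luminal passed (0.55, limma adjusted p = 0.0478). Calls over all genes in that comparison went from 7207 to 7631.

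Among the members' differences that were not called, 48 values under single alternatives had the other sign, and 21 passed the threshold. With the low-data set as a covariate, Notch1 and Jag1 in basal cells were -0.0537 and -0.0250 and Jag2 in luminal cells 0.21. Quantile normalization gave -0.0133 for Jag1 in basal and -0.18 for Dll1 in luminal cells, and genotype effects of 0.0727 for Notch1 (stromal minus luminal), 0.0934 for Jag2 and 0.0814 for Dll1 (basal minus luminal). TMM factors gave -0.0109 for Jag1 in basal cells. Hes1 stromal minus basal was -0.44 with the title block and -0.12 in Lgr5-DTR libraries, an alternative chosen after seeing the data, and Hey1 stromal minus luminal was -0.0365 and -0.16. The replicate block put Dll1 (stromal minus basal effect) at 0.0016. With a library left out, the ranges that crossed 0 were -0.21 to 0.25 for Notch2 and -0.85 to 0.12 for Dll1 in stromal cells. In basal cells they were -0.0557 to 0.34 for Notch1, -0.27 to 0.0219 for Notch2, -0.0834 to 0.11 for Jag1, -0.36 to 0.17 for Jag2, -0.26 to 0.0626 for Dll1 and -0.0417 to 0.20 for Hes1. In luminal cells they were -0.35 to 0.26 for Jag2 and -0.27 to 0.26 for Dll1. Among genotype effects they were -0.0233 to 0.37 for Notch1, -0.0748 to 0.38 for Notch2 and -0.77 to 0.20 for Dll1 (stromal minus basal), -0.90 to 0.0750 for Dll1 (stromal minus luminal), and -0.38 to 0.22 for Jag2 and -0.34 to 0.20 for Dll1 (basal minus luminal). The cause of these changes was not tested.

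Calls over all genes, beside 125, 1069 and 330, ran from 36 to 1041 in stromal, 213 to 1270 in basal and 4 to 871 in luminal cells over processing alternatives, and from 31 to 232, 290 to 2231 and 0 to 876 with a library left out. For genotype effects, beside 268, 232 and 388, they ran from 150 to 365, 76 to 319 and 300 to 647 over processing alternatives, and from 113 to 369, 82 to 268 and 137 to 802 with a library left out. Of the luminal calls 83.6% were higher in Lgr5-DTR, against 66.8% with quantile normalization and 63.4% with TMM factors. For the genotype effects the share was 29.9%, 48.8% and 45.5% (stromal minus basal) and 25.5%, 42.1% and 42.9% (basal minus luminal). Quantile normalization moved the median of all genes from 0.10 to -0.04 in luminal and from -0.09 to 0.03 in stromal cells, and TMM factors moved it from -0.24 to -0.01 for wild type stromal minus luminal and from -0.14 to 0.00 for basal minus luminal cells. Notch3, Notch4 and Dll4 lay mostly below 1 FPKM, and the filter left out most of their comparisons. The cause of these shifts was not tested.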
